A study of Mus musculus with 24 samples.

Results

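The CD2 and SLAM family receptors are followed here through 2 bone marrow populations and 4 genotypes. The members are the 8 genes whose symbol in the count tables is Cd2, Cd48, Cd244, Slamf1, Slamf6, Slamf7, Ly9 or Cd84, of 24421 genes in all. All 8 were found in each of the 24 tables, and all 8 passed the filter on low counts in every comparison. The common lymphoid progenitors (CLPs) had been sorted as donor-derived CD45.2+ Lin-IL-7R+ cells and the B cell progenitors as CD45.2+ B220+IgM-IL-7R+ cells, from the marrow of lethally irradiated CD45.1+ wild-type recipients 6 to 8 weeks after transplantation. The donors were control mice with both genes (Plcg1+/+Plcg2+/+), mice without PLCγ1 (Plcg1-/-Plcg2+/+), mice without PLCγ2 (Plcg1+/+Plcg2-/-) and mice without either (Plcg1-/-Plcg2-/-), 6 to 12 weeks of age when they received poly(I-C). Every donor, controls included, carried a Rosa-YFP reporter and MxCre, in which Cre is driven by the interferon-inducible Mx promoter. Loss of floxed Plcg1 thus depends on induced Cre, while Plcg2 is absent from the germline. The paper describes the recipients' marrow as largely YFP+, and the markers it gives for these sorts do not include YFP. How much floxed Plcg1 remained in the sorted cells was not tested. Each group held 3 libraries, and the CLPs and B cell progenitors of a given genotype and replicate number carry the same one of 12 identifiers in their titles, read here as 12 mice. Nothing in the labels gives the number of donors behind each genotype. The paper describes its experimental and control mice as being of mixed strain background. The labels do not say which strain's copy of each member a donor carried. The part of strain differences at these genes in the levels and fold changes below was not tested.

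The CD2 and SLAM family is a group of immunoglobulin superfamily receptors that leukocytes use to touch one another. CD48, which is held in the membrane by a lipid anchor, is the ligand of both CD2 and CD244 in the mouse, while SLAMF1, SLAMF6, SLAMF7, LY9 and CD84 mostly bind a copy of themselves on the neighbouring cell. The SLAM receptors signal through tyrosines that recruit the small SH2 adaptors SAP and EAT-2 or, in their absence, phosphatases, whereas the tail of CD2 binds SH3 and GYF domain proteins. In mouse marrow Slamf1, Cd48 and Cd244 are used to tell stem cells from multipotent progenitors, and surface CD2 is commonly used as a marker of B cell progenitors that have reached the pre-B stage.

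Of the 8 genes, 7 lie together within 390.2 kb of chromosome 1 (GRCm38, 171558718 to 171948958) in the order Cd244, Ly9, Slamf7, Cd48, Slamf1, Cd84 and Slamf6. RefSeq lists 9 other genes in that interval, of which 1, the microRNA gene Mir7683, is named in the tables, and 0 passed the filter on low counts. Cd2 is the exception and lies on the minus strand of chromosome 3, from 101275908 to 101287939. Ly9 and Slamf7 are on the minus strand of chromosome 1 and the other members there are on the plus strand. In the RefSeq models Cd244 ends at 171585316 and Ly9 begins at 171588613, but in the GENCODE M21 annotation the Cd244 gene overlaps Ly9. The library kit does not keep strand, so reads from such an overlap cannot be told apart.

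The part of these genes that sets the receptors apart from Cd2 and Cd48 is the tyrosine-based switch motif of the cytoplasmic tail, and 1 coding copy of it is therefore shown for each receptor that has it. The motif was read from the coding sequence of the reference transcript as codons for threonine, any residue, tyrosine, any residue, any residue and then valine or isoleucine. In the last 40 percent of the coding sequence Cd244 held 4 copies, Slamf1, Slamf6, Ly9 and Cd84 held 2 each, Slamf7 held 1, and Cd2 and Cd48 held 0. The motif codons are in capitals, with 6 bases of flanking coding sequence on each side, all GRCm38 and in the direction of transcription.
Cd244, exon 5, chr1:171577838-171577855, plus strand: cctttgACAATATATGAATATGTCaaggac
Slamf1, exon 5, chr1:171792339-171792356, plus strand: agccttACTATTTATGCCCAAGTAcagaaa
Slamf6, exon 6, chr1:171939437-171939454, plus strand: gggaacACTGTGTATGCACAAGTCactcgt
Slamf7, exon 7, chr1:171636327-171636344, minus strand: ccaaacACATTTTATTCCACTGTGcagatc
Ly9, exon 8, chr1:171593912-171593929, minus strand: gcaatcACTCCATATGATAAAGTGgatggg
Cd84, exon 6, chr1:171884605-171884622, plus strand: aagaaaACAGTATATGCTGTAGTTtcaaga

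RefSeq promoters, from 250 bases before to 50 bases after a start of transcription, were matched for 6 of the 8 members (GRCm38.p6). Those of Slamf6 and Slamf7 and those of Cd244 and Cd84 are shown, since each of these pairs shared its highest or lowest CLP libraries, as described below. Both strands were searched for the E-boxes CAGCTG and CACCTG, the ETS core GAGGAA, the EBF1 sequence CCCNNGGG and the RUNX core TGTGGT, and matches are in capitals. The searched letters do not overlap one another in these windows. Of 32851 RefSeq promoters of the same length 16.3% held CAGCTG, 20.2% held CACCTG, 28.3% held GAGGAA, 13.7% held CCCNNGGG and 16.8% held TGTGGT. Slamf7 held 1 CAGCTG, Cd244 1 GAGGAA, Cd84 1 GAGGAA on the reverse strand and 1 TGTGGT, and Slamf6 none of the 5.
Slamf6, chr1:171917212-171917511, plus strand: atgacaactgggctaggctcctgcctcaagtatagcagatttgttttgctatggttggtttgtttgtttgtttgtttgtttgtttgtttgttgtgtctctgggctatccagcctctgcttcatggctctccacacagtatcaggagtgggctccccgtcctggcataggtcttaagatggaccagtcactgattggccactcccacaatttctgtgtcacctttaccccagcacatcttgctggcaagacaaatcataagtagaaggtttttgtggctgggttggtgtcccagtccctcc
Slamf7, chr1:171648950-171649249, minus strand: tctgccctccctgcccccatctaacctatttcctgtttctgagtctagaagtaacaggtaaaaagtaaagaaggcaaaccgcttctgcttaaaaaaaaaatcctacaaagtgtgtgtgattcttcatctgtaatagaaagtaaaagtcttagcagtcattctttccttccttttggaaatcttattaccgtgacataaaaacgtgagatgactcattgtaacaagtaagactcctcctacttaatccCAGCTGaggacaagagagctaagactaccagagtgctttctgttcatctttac
Cd244, chr1:171558943-171559242, plus strand: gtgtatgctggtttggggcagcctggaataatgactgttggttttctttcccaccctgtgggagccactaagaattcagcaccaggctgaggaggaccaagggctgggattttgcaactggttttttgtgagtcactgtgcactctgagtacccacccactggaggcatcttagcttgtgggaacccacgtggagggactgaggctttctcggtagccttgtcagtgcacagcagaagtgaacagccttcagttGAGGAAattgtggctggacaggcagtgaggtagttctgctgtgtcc
Cd84, chr1:171839447-171839746, plus strand: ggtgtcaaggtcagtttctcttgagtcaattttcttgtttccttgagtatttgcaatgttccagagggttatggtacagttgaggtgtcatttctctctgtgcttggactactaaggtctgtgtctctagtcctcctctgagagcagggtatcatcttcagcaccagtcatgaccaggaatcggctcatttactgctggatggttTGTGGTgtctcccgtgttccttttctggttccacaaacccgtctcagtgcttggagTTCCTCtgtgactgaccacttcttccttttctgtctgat

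The libraries held 4232345 to 33219995 reads on genes in CLPs and 1479582 to 25057223 in B cell progenitors, and levels are given as CPM, the reads of a gene scaled to a common total of reads on genes, after TMM scaling over the 24 libraries. Plcg2 was lower in all 6 Plcg2-/- libraries of each population than in all 6 Plcg2+/+ ones, whereas Plcg1, counted over the whole gene and not over its floxed exons, overlapped between Plcg1-/- and Plcg1+/+ libraries. Xist was at 1293 to 2313 CPM in the 12 Plcg1-/- libraries and at 23.6 to 742 CPM in the 12 Plcg1+/+ ones, with the Y-linked gene Ddx3y reversed, so a difference of sex and the loss of PLCγ1 cannot be told apart. The comparisons of Plcg1-/-Plcg2-/- with Plcg1-/-Plcg2+/+ and of Plcg1+/+Plcg2-/- with Plcg1+/+Plcg2+/+ were made within the same Xist class. Flt3, a receptor of early lymphoid progenitors, did not separate 8 of the CLP libraries, at 25.8 to 115 CPM, from the 12 B cell progenitor libraries, at 28.4 to 111 CPM. The other 4 CLP libraries stood apart, namely Plcg1+/+Plcg2+/+ replicate 1 and replicate 2 of each mutant genotype. In them Flt3 was at 196 to 734 CPM, the summed level of 6 mast cell and basophil markers was 1899 to 3352 CPM against 156 to 647 CPM in the other 8, and that of 7 innate lymphoid cell markers was 612 to 1146 CPM against 103 to 417 CPM. Each genotype had 1 of these libraries, and for each member the log2 fold change between Plcg1-/-Plcg2-/- and Plcg1+/+Plcg2+/+ CLPs is given with and without them.

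Per kb of exon, the scale on which genes can be compared, Cd48 was the most abundant member and Slamf1 the least in all 8 groups. In Plcg1+/+Plcg2+/+ B cell progenitors Cd48 was at 100.2 ± 6.06 CPM per kb (SD, n = 3), Slamf7 at 47.9 ± 1.39, Cd2 at 29.2 ± 2.295, Ly9 at 24.96 ± 2.52, Slamf6 at 17.5 ± 3.73, Cd84 at 11.8 ± 0.611, Cd244 at 4.58 ± 1.23 and Slamf1 at 0.8296 ± 0.293 CPM per kb. Cd2 and Ly9 were the neighbours in this order whose libraries overlapped, and the remaining neighbours did not overlap. In Plcg1-/-Plcg2-/- B cell progenitors Cd2 stood in the seventh place and not the third, at 8.097 ± 4.72 CPM per kb, below Cd244 at 8.56 ± 1.64, which it overlapped. The same places were those of Cd2 in CLPs, where it was at 31.4 ± 8.95 CPM per kb in Plcg1+/+Plcg2+/+ cells and in Plcg1-/-Plcg2-/- cells at 11.4 ± 2.82. Exon lengths were taken from protein-coding GENCODE M21 transcripts, and the order depends on which of them the cells use, which was not tested.

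**Figure D1:**
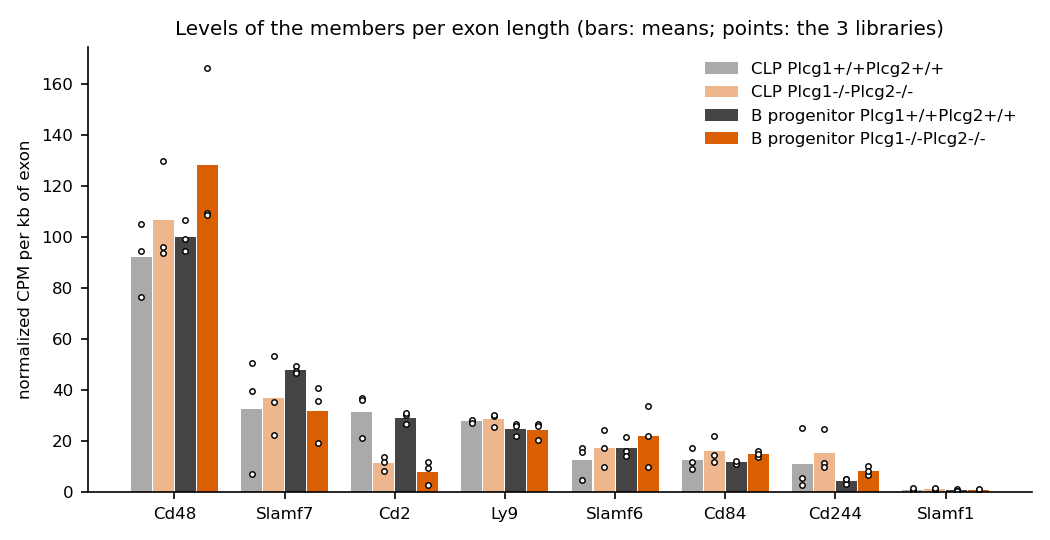
Levels of the 8 members in CPM per kb of exon, with bars for the mean and points for the 3 libraries of each group. Cd48 was highest and Slamf1 lowest, and Cd2 was at 29.2 CPM per kb in Plcg1+/+Plcg2+/+ and 8.097 in Plcg1-/-Plcg2-/- B cell progenitors.

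Among the members Cd2 alone passed the test in a genotype comparison, and it fell. In B cell progenitors Cd2 was at 34.8, 30.7 and 35.7 CPM in the 3 Plcg1+/+Plcg2+/+ libraries and at 13.8, 3.26 and 10.99 CPM in the 3 Plcg1-/-Plcg2-/- libraries. All 3 double-deficient libraries were below all 3 controls, and the lowest was replicate 2, with 76 reads on Cd2. In the quasi-likelihood test of edgeR, with p adjusted by the Benjamini-Hochberg method, the log2 fold change was -1.95 (SE 0.39, interval -2.804 to -1.100, adjusted p = 0.0386), a level 0.258 times that of controls. Of the 15001 genes tested 0.893% were called, which required an adjusted p no higher than 0.05 and a log2 fold change of 0.5 or more in either direction, and 0.673% were called lower, against 1 of the 8 members. The adjusted p of Cd2 was 0.00038 to 0.0868 over the 7 alternatives other than leaving out a single library. The call was close to its threshold, and it held without Plcg1-/-Plcg2-/- replicate 1 (adjusted p = 0.0271) or 2 (0.01996). It was lost without Plcg1+/+Plcg2+/+ replicate 1, 2 or 3 (adjusted p = 0.11, 0.113 and 0.137), without Plcg1-/-Plcg2-/- replicate 3 (0.114), with these groups fitted alone (0.0868) and without Plcg1+/+Plcg2-/- replicates 1 and 3, the 2 shallowest B cell progenitor libraries (0.0532), while the log2 fold change lay between -2.31 and -1.46 throughout.

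In CLPs Cd2 was at 24.4, 42.9 and 41.6 CPM in Plcg1+/+Plcg2+/+ libraries and at 16.02, 9.64 and 13.9 CPM in Plcg1-/-Plcg2-/- libraries, again with no overlap. The log2 fold change was -1.45 (SE 0.29, interval -2.09 to -0.81, adjusted p = 0.133) and did not pass, in a comparison where 0.0921% of all genes were called. The lowest control was replicate 1, a library that stood apart. Without it Cd2 passed at a log2 fold change of -1.69 (adjusted p = 0.0417), without all 4 such libraries it was -1.496 (adjusted p = 0.0811), and with DESeq2 it passed at -1.45 (adjusted p = 0.00112). The response of Cd2 in B cell progenitors less that in CLPs was -0.50 (SE 0.50, interval -1.53 to 0.54, adjusted p = 0.9998) on the log2 scale, so a difference between the populations was not detected.

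**Figure D2:**
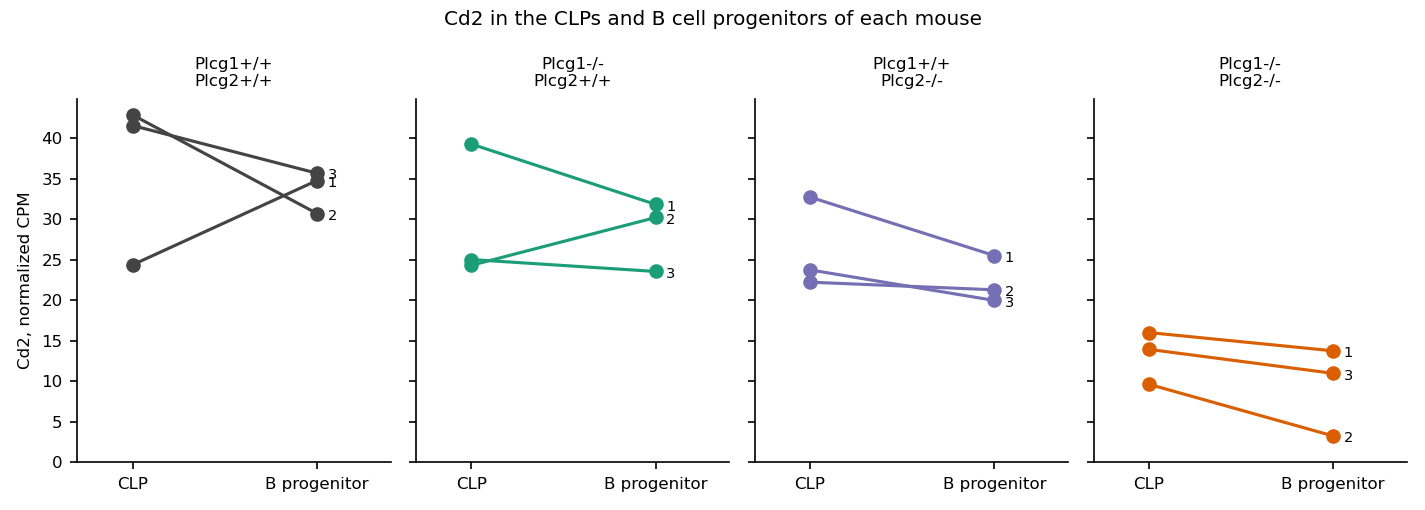
Cd2 level in normalized CPM in the CLPs and B cell progenitors of each mouse, joined by a line, with the replicate number at the right. The 6 Plcg1-/-Plcg2-/- values lie between 3.26 and 16.02 CPM, and the other 18 at 19.97 to 42.9 CPM.

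With loss of PLCγ1 or PLCγ2 alone the mean level of Cd2 lay between those of these groups. In B cell progenitors it was at 31.8, 30.2 and 23.6 CPM in Plcg1-/-Plcg2+/+ and at 25.5, 21.3 and 19.97 CPM in Plcg1+/+Plcg2-/- libraries. The Plcg1+/+Plcg2-/- libraries were all below the controls and the Plcg1-/-Plcg2+/+ ones overlapped them. The log2 fold changes against Plcg1+/+Plcg2+/+ were -0.22 (SE 0.36, adjusted p = 0.765) and -0.58 (SE 0.38, adjusted p = 0.919). In CLPs Cd2 was at 39.3, 24.3 and 25.02 CPM in Plcg1-/-Plcg2+/+ and at 32.7, 22.2 and 23.7 CPM in Plcg1+/+Plcg2-/- libraries, with log2 fold changes of -0.29 (SE 0.29, adjusted p = 0.9996) and -0.46 (SE 0.29, adjusted p = 0.939).

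Cd2 was also lower in every Plcg1-/-Plcg2-/- library than in every library of either single mutant of the same population. Against Plcg1-/-Plcg2+/+, within the same Xist class, the log2 fold change was -1.73 (SE 0.39, adjusted p = 0.14) in B cell progenitors and -1.16 (SE 0.29, adjusted p = 0.424) in CLPs. Against Plcg1+/+Plcg2-/- it was -1.37 (SE 0.40, adjusted p = 0.333) and -0.996 (SE 0.29, adjusted p = 0.506). None of these 4 passed with edgeR, in comparisons where 0.213%, 0.0263%, 0.153% and 0.0526% of all genes were called. With DESeq2 the comparison with Plcg1-/-Plcg2+/+ passed in both populations (adjusted p = 0.00718 in B cell progenitors and 0.0401 in CLPs). The part of the Cd2 response of double-deficient cells beyond the sum of the single ones was -1.15 (SE 0.54, interval -2.33 to 0.02, adjusted p = 0.337) in B cell progenitors and -0.70 (SE 0.41, interval -1.59 to 0.19, adjusted p = 0.862) in CLPs.

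Genes of the B cell marker lists were called lower beside Cd2, while the summed levels of most lists overlapped. In Plcg1-/-Plcg2-/- B cell progenitors Il2ra, which encodes the pre-B marker CD25, was at 8.52, 2.96 and 8.47 CPM against 73.1, 74.1 and 48.4 CPM in controls (log2 fold change -3.404 (SE 0.51, adjusted p = 0.00818)). Cd22, an inhibitory B cell receptor, was at 45.9, 34.7 and 48.6 CPM against 125, 126 and 145 CPM (log2 fold change -1.62 (SE 0.24, adjusted p = 0.00747)). Of the 12 pre-B cell markers these 2 fell and 0 rose, in the comparison where 0.893% of all genes were called. Of 8 pro-B and lymphoid progenitor, 6 mature B cell and 5 plasma cell markers 1 of each list fell (Cd24a, Ciita and Sdc1) and 0 rose. The summed level of the 12 pre-B cell markers did not fall with them. It was 2469, 7721 and 5358 CPM against 4476, 4598 and 3236 CPM in controls. These overlapped, and the median was higher in the double-deficient libraries, at 5358 against 4476 CPM. The sum of the mature B cell markers overlapped too, at 399.7 to 653 against 505 to 591 CPM, and that of the pro-B and lymphoid progenitor markers did so at 1604 to 4774 against 3860.3 to 4858 CPM. The sum of the plasma cell markers was higher in all 3 Plcg1-/-Plcg2-/- libraries, at 468 to 630.4 against 377 to 411 CPM. The part of these lists in the Cd2 result was not tested. In a bulk sample fewer cells of a type and less RNA per cell cannot be told apart.

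The genes whose pattern over the 24 libraries was most like that of Cd2, by the root mean square difference of centred log2 CPM among 17211 other genes, were Ikzf3 (0.395), Hdac5 (0.424) and H2-DMb2 (0.458), against 0.798 for the spread of Cd2 itself. Ikzf3, which encodes the lymphoid factor Aiolos, was at 38.3 to 74.5 CPM in Plcg1-/-Plcg2-/- and 191 to 333 CPM in Plcg1+/+Plcg2+/+ B cell progenitors. Hdac5, a class IIa histone deacetylase, was at 73.6 to 102 and 238 to 302 CPM. H2-DMb2, a subunit of the MHC class II peptide editor, was at 2.83 to 7.86 and 10.4 to 16.96 CPM. By edgeR the adjusted p between these groups was 0.0233 for Ikzf3, 0.00119 for Hdac5 and 0.293 for H2-DMb2, which did not pass. These genes were picked for their likeness to Cd2 in the same libraries, so their lower levels are no separate result.

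**Figure D3:**
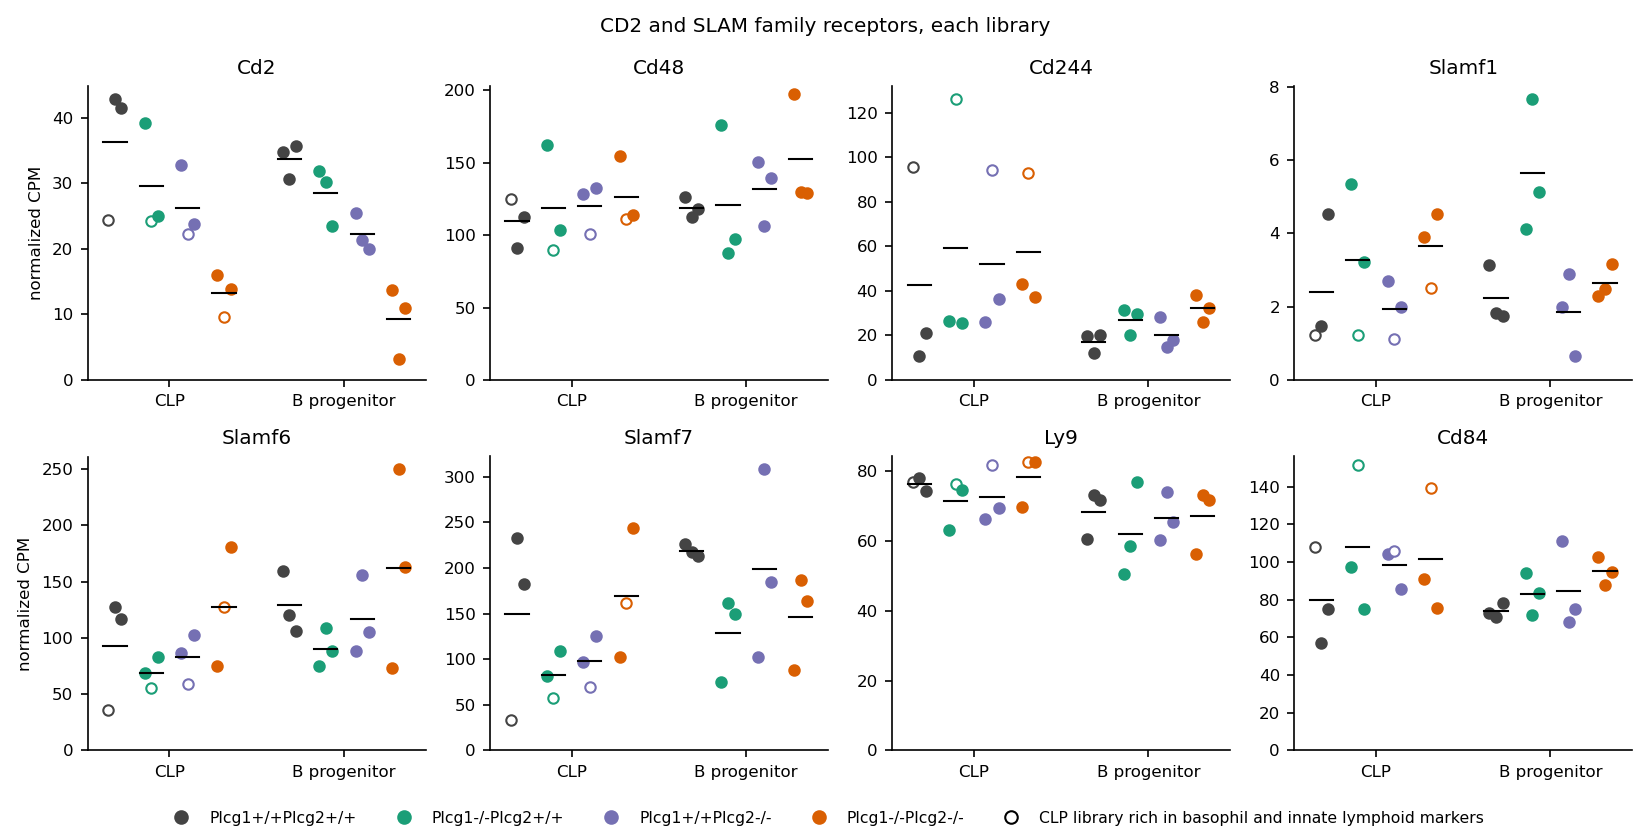
Level of each member in normalized CPM in the 24 libraries, with CLPs at the left and B cell progenitors at the right of each panel, the genotypes in the order of the legend and a bar for the mean of each group of 3. Open circles are the 4 CLP libraries that stood apart, which hold the 4 highest Cd244 values of the CLPs (92.99 to 126 CPM).

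Cd48, the ligand of CD2, was at 127, 112 and 118 CPM in Plcg1+/+Plcg2+/+ and at 198, 130.1 and 129 CPM in Plcg1-/-Plcg2-/- B cell progenitors. All 3 double-deficient libraries were above the controls, and the log2 fold change of 0.35 (SE 0.25, interval -0.20 to 0.90, adjusted p = 0.589) did not pass. In CLPs it was at 125, 91.1 and 113 CPM in Plcg1+/+Plcg2+/+ and at 154, 111 and 114 CPM in Plcg1-/-Plcg2-/- libraries, which overlapped, with a log2 fold change of 0.20 (SE 0.23, interval -0.31 to 0.70, adjusted p = 0.861), and of 0.39 (adjusted p = 0.568) without the 4 libraries that stood apart. In each of the 4 B cell progenitor groups replicate 1 had the highest Cd48, at 127 to 198 CPM, and the lowest Ly9, at 50.6 to 60.4 CPM. Among B cell progenitors replicate 1 of the 3 mutant genotypes also had the highest summed level of macrophage markers, of which 8 were in the tables. It was 315 to 329.6 CPM against 78.9 to 239 CPM in the other 9. These 3 libraries were highest in stem and multipotent progenitor markers too, at 143 to 186 against 38.5 to 108 CPM. The same held for megakaryocyte markers, at 53.4 to 94.7 against 20.3 to 43.8 CPM. The part of these lists in the Cd48 values was not tested.

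Cd244, the other receptor for CD48, was at 95.4, 126, 94.3 and 92.99 CPM in the 4 CLP libraries that stood apart and at 10.96 to 42.9 CPM in the other 8. Within B cell progenitors it was at 19.5, 11.9 and 20.2 CPM in Plcg1+/+Plcg2+/+ and at 38.3, 26.03 and 32.2 CPM in Plcg1-/-Plcg2-/- libraries. These groups did not overlap, and the log2 fold change of 0.88 (SE 0.28, interval 0.27 to 1.49, adjusted p = 0.213) did not pass. The Plcg1-/-Plcg2+/+ libraries, at 31.2, 20.3 and 29.7 CPM, were also above the controls (log2 fold change 0.67 (SE 0.28, adjusted p = 0.467)). In CLPs the log2 fold change of Cd244 in Plcg1-/-Plcg2-/- cells was 0.39 (SE 0.83, adjusted p = 0.927), and without the 4 libraries it was 1.26 (adjusted p = 0.183). The summed mast cell and basophil markers were at 821, 188 and 408 CPM in Plcg1-/-Plcg2-/- and at 316, 189 and 292 CPM in Plcg1+/+Plcg2+/+ B cell progenitors, which overlapped. The sum of 8 NK cell markers was 118, 53.7 and 93.8 CPM in Plcg1-/-Plcg2-/- and 68.7, 53.7 and 118 CPM in Plcg1-/-Plcg2+/+ libraries. All were above the Plcg1+/+Plcg2+/+ ones, at 48.3, 30.6 and 53.5 CPM, but barely so in replicate 2 of each mutant (53.65 and 53.75 against 53.54 CPM). Of all genes tested, 19.2% and 19.5% lay wholly on one side of the controls in these comparisons. Of the 8 markers 0 were called in Plcg1-/-Plcg2-/- cells. The part of either list in the Cd244 values was not tested.

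Cd84, a receptor that binds itself and is found on B cells, platelets and mast cells, had its 4 highest CLP values in the same 4 libraries, at 106 to 151 CPM against 57.2 to 104 CPM in the other 8. Its level was 72.9, 70.8 and 78.3 CPM in Plcg1+/+Plcg2+/+ and at 103, 88.01 and 94.9 CPM in Plcg1-/-Plcg2-/- B cell progenitors. These groups did not overlap, and the log2 fold change of 0.36 (SE 0.17, interval -0.02 to 0.73, adjusted p = 0.43) did not pass. In CLPs it was 0.32 (SE 0.29, adjusted p = 0.826), and 0.32 (adjusted p = 0.595) without the 4 libraries.

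**Figure D4:**
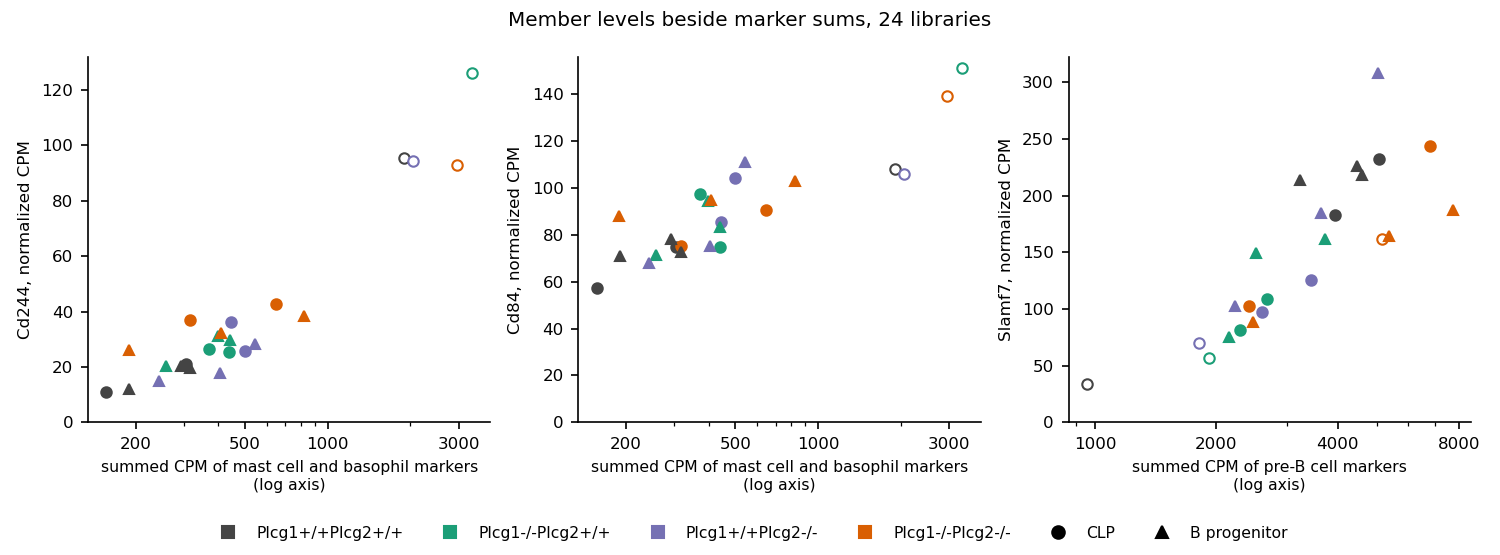
Normalized CPM of Cd244 and Cd84 against the summed CPM of mast cell and basophil markers, and of Slamf7 against that of pre-B cell markers, in the 24 libraries on a log x axis, with circles for CLPs and triangles for B cell progenitors. The 4 CLP libraries that stood apart lie at 1899 to 3352 CPM of mast cell and basophil markers and have the highest Cd244, and Slamf7 is lowest, at 33.6 CPM, in the library with 955 CPM of pre-B markers.

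Ly9, which encodes a further self-binding receptor, lay between 63.1 and 82.5 CPM over the 12 CLP libraries and between 50.6 and 76.8 CPM over the 12 B cell progenitor libraries. It was at 60.4, 72.99 and 71.6 CPM in Plcg1+/+Plcg2+/+ and at 56.4, 73.1 and 71.7 CPM in Plcg1-/-Plcg2-/- B cell progenitors, which overlapped. The log2 fold change in Plcg1-/-Plcg2-/- cells was 0.03 (SE 0.12, interval -0.25 to 0.30, adjusted p = 0.969) in CLPs and -0.02 (SE 0.17, interval -0.40 to 0.35, adjusted p = 0.967) in B cell progenitors, and without the 4 CLP libraries it was 0.00 (adjusted p = 0.9978) in CLPs.

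Slamf6 and Slamf7, both self-binding receptors of lymphocytes, varied within each genotype. In CLPs Slamf7 was at 33.6, 233 and 183 CPM in Plcg1+/+Plcg2+/+, at 81.8, 56.9 and 109 CPM in Plcg1-/-Plcg2+/+, at 97.4, 69.6 and 126 CPM in Plcg1+/+Plcg2-/- and at 103, 161 and 244 CPM in Plcg1-/-Plcg2-/- libraries. Slamf6 was at 35.8, 127 and 116 CPM, at 68.6, 55.4 and 83.3 CPM, at 86.2, 58.9 and 103 CPM and at 74.6, 127 and 181 CPM in the same order. In each of the 4 groups the library highest in Slamf6 was also the highest in Slamf7, and likewise for the lowest. The library lowest in both, Plcg1+/+Plcg2+/+ replicate 1, also had the lowest summed pre-B cell markers, at 955 CPM against 1813 to 6791 CPM in the other 11, and their part in these values was not tested.

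For Slamf7 the log2 fold change in Plcg1-/-Plcg2-/- CLPs was 0.18 (SE 0.56, interval -1.04 to 1.398, adjusted p = 0.955), and -0.26 (adjusted p = 0.829) without the 4 libraries that stood apart. Among B cell progenitors it was at 226, 218 and 213 CPM in Plcg1+/+Plcg2+/+ and at 88.5, 187 and 164 CPM in Plcg1-/-Plcg2-/- libraries. These did not overlap, but the log2 fold change of -0.58 (SE 0.38, interval -1.41 to 0.26, adjusted p = 0.553) did not pass. The Plcg1-/-Plcg2+/+ libraries, at 74.9, 162 and 149 CPM, were likewise below the controls (log2 fold change -0.74 (SE 0.38, adjusted p = 0.467)), and the Plcg1+/+Plcg2-/- libraries, at 102, 309 and 184 CPM, overlapped them. For Slamf6 the log2 fold change in Plcg1-/-Plcg2-/- cells was 0.45 (SE 0.43, interval -0.50 to 1.401, adjusted p = 0.835) in CLPs, and without the 4 libraries it was 0.07 (adjusted p = 0.959). Slamf6 in B cell progenitors was at 159.5, 121 and 106 CPM in Plcg1+/+Plcg2+/+ and at 73.1, 250.4 and 163 CPM in Plcg1-/-Plcg2-/- libraries, with a log2 fold change of 0.33 (SE 0.36, interval -0.44 to 1.11, adjusted p = 0.719). Without Plcg1-/-Plcg2-/- replicate 2, the highest, it was -0.12 (adjusted p = 0.897).

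Slamf1, which encodes CD150, was the least abundant member, with 1 to 150 reads in a library. In B cell progenitors it was at 3.14, 1.82 and 1.73 CPM in Plcg1+/+Plcg2+/+, at 4.14, 7.68 and 5.12 CPM in Plcg1-/-Plcg2+/+, at 1.99, 2.91 and 0.666 CPM in Plcg1+/+Plcg2-/- and at 2.29, 2.49 and 3.18 CPM in Plcg1-/-Plcg2-/- libraries. The Plcg1-/-Plcg2+/+ libraries were above all others, with a log2 fold change of 1.36 (SE 0.48, interval 0.31 to 2.41, adjusted p = 0.467) against controls, which did not pass. In Plcg1-/-Plcg2-/- cells the log2 fold change was 0.25 (SE 0.49, interval -0.81 to 1.31, adjusted p = 0.856) in B cell progenitors and 0.53 (SE 0.62, interval -0.82 to 1.89, adjusted p = 0.86) in CLPs, so that at this depth a log2 fold change of 1 lay within the interval in either population. Without the 4 CLP libraries the value in CLPs was 0.38 (adjusted p = 0.829).

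Against Plcg1+/+Plcg2+/+, 0 of the 8 members were called in Plcg1-/-Plcg2+/+ and 0 in Plcg1+/+Plcg2-/- cells of either population, by edgeR or by DESeq2. By edgeR 0.00658% and 0% of all genes were called in CLPs and 0.06% and 0.0467% in B cell progenitors. At an unadjusted p under 0.05 the members numbered 0 and 0 in CLPs, and 2 (Cd244 and Slamf1) and 0 in B cell progenitors, and in these 4 comparisons 2.85%, 3.92%, 9.93% and 2.84% of all genes had such a p. The median log2 fold change of the 8 members in Plcg1-/-Plcg2-/- cells was 0.26 in CLPs, beside -0.03 over all genes tested, and 0.29 in B cell progenitors, beside -0.02. The 3 Plcg1-/-Plcg2-/- libraries lay wholly on one side of the 3 Plcg1+/+Plcg2+/+ ones for 1 of 8 members in CLPs, where 13.6% of all genes did so, and for 5 of 8 in B cell progenitors (Cd2 and Slamf7 lower, Cd48, Cd244 and Cd84 higher), where 19.2% of all genes did so. For Plcg1-/-Plcg2+/+ it was 0 of 8 in CLPs, beside 6% of all genes. In B cell progenitors it was 3 of 8 (Slamf1, Cd244 and Slamf7), beside 19.5%. For Plcg1+/+Plcg2-/- it was 0 of 8 in CLPs, beside 7.74%, and 1 of 8 (Cd2) in B cell progenitors, beside 9.28%.

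**Figure D5:**
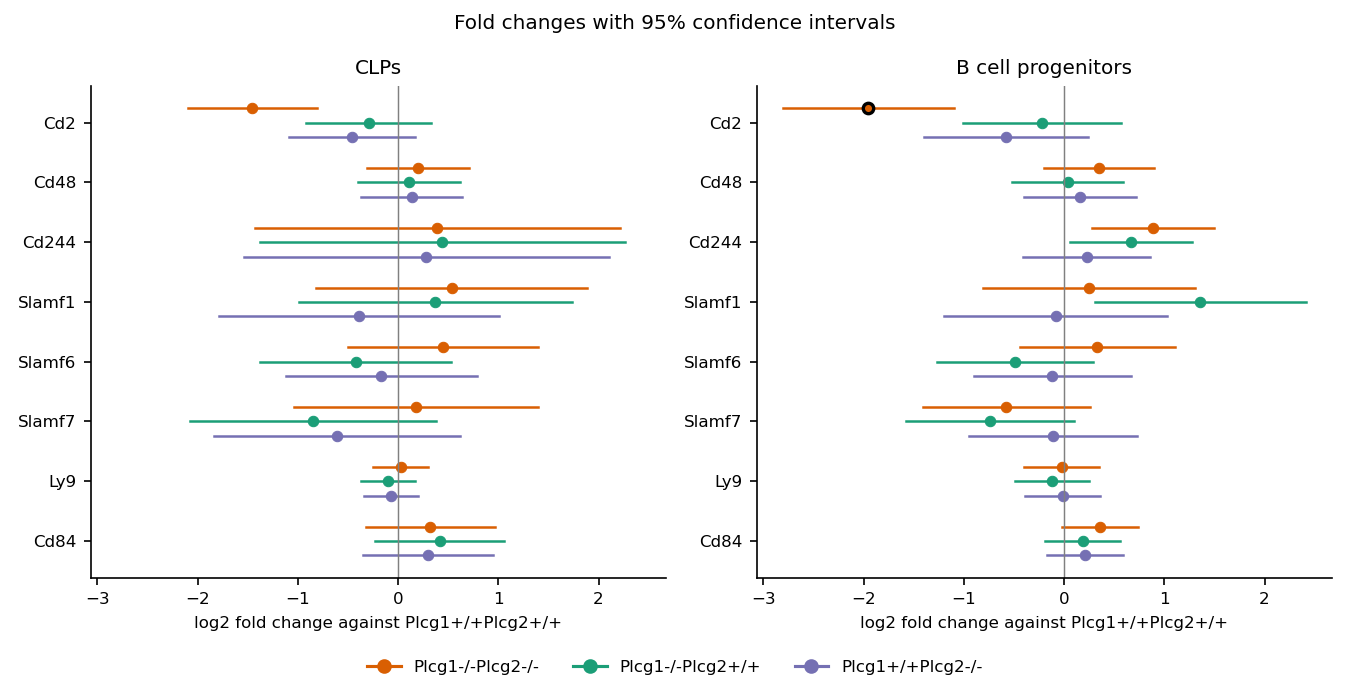
Log2 fold change of each member against Plcg1+/+Plcg2+/+ with its 95% confidence interval, in CLPs and in B cell progenitors, for the 3 mutant genotypes. The black ring marks the single value that passed, Cd2 in Plcg1-/-Plcg2-/- B cell progenitors at -1.95, and the interval of Cd244 in Plcg1-/-Plcg2-/- CLPs runs from -1.43 to 2.21.

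No member was called between the B cell progenitors and CLPs of the same mice. By edgeR and by DESeq2 0 of 8 were called in each of the 4 genotypes, while by edgeR 3.5% of all genes were called in Plcg1+/+Plcg2+/+, 3.78% in Plcg1-/-Plcg2+/+, 3.21% in Plcg1+/+Plcg2-/- and 3.24% in Plcg1-/-Plcg2-/- mice. At an unadjusted p under 0.05 there were 0 of 8 members in each genotype, and in the same order 16.1%, 26.5%, 16.2% and 14.3% of all genes. For Cd244 the log2 fold change of B cell progenitors over CLPs was -1.32 (SE 0.67, adjusted p = 0.352) in Plcg1+/+Plcg2+/+ and -1.39 (SE 0.71, adjusted p = 0.338) in Plcg1+/+Plcg2-/- mice. Without the 4 CLP libraries that stood apart these values of Cd244 were 0.07 (adjusted p = 0.9994) and -0.70 (adjusted p = 0.423). For Slamf7 the log2 fold change was 1.04 (SE 0.51, interval -0.03 to 2.11, adjusted p = 0.321) in Plcg1+/+Plcg2-/- mice, and 0.74 (adjusted p = 0.488) without the 4 libraries. In the test of whether this contrast differed between a mutant genotype and Plcg1+/+Plcg2+/+, 0 of 8 members were called by edgeR or by DESeq2, where edgeR called 0% of all genes for each genotype, and 0 of 8 had an unadjusted p under 0.05, where 3.48%, 0.901% and 1.37% of all genes did in Plcg1-/-Plcg2+/+, Plcg1+/+Plcg2-/- and Plcg1-/-Plcg2-/- cells. Since Flt3 overlapped between 8 CLP libraries and the B cell progenitors, these values describe the sorted gates. Reads on no gene were 59.9 to 87.3% of reads in B cell progenitor libraries and 17.9 to 45.2% in CLP libraries. These did not overlap, so population and this difference between libraries cannot be told apart. Most calls were higher in B cell progenitors, such as 541 of 602 in Plcg1+/+Plcg2+/+ mice.

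Slamf8 and Slamf9, the SLAM family genes outside the members, lie further along chromosome 1, from 172581377 to 172590873 and from 172458569 to 172478421. Slamf9 fell in Plcg1-/-Plcg2-/- B cell progenitors, at 2.62, 1.33 and 2.25 CPM with 8 to 31 reads, against 10.02, 8.91 and 9.199 CPM in Plcg1+/+Plcg2+/+ and 9.703, 9.57 and 8.704 CPM in Plcg1-/-Plcg2+/+ libraries. The log2 fold change was -2.26 (SE 0.35, adjusted p = 0.00877) against the first and -2.28 (SE 0.35, adjusted p = 0.0457) against the second, which is of the same Xist class. The first call was lost without Plcg1-/-Plcg2-/- replicate 2 (adjusted p = 0.0553), and the second when these groups were fitted alone (adjusted p = 0.214) and without any one of Plcg1-/-Plcg2+/+ replicates 1, 2 and 3 (0.0959, 0.132 and 0.0563) or Plcg1-/-Plcg2-/- replicates 2 and 3 (0.205 and 0.174). Over the 7 alternatives other than leaving out a single library, the adjusted p of the first was 3.57e-06 to 0.0218. That of the second was 1.83e-05 to 0.214. The Plcg1+/+Plcg2-/- libraries were at 3.19, 6.18 and 3.33 CPM (log2 fold change -1.02 (SE 0.33, adjusted p = 0.919)). In CLPs the log2 fold change of Slamf9 in Plcg1-/-Plcg2-/- cells was -1.37 (SE 0.86, adjusted p = 0.753). Slamf8 was at 0.622 to 6.14 CPM and was not called.

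The adaptors and effectors behind the receptors were not called between genotypes. Of 15 SLAM adaptor and effector genes 14 passed the filter on low counts, and 0 were called in any genotype comparison of either population. In these comparisons 0% to 0.893% of all genes were called, so few or no calls among so few genes are no particular result. Sh2d1a, which encodes SAP, was at 0.558 to 6.997 CPM and Sh2d1b1, which encodes EAT-2, at 0.487 to 8.43 CPM over the 24 libraries, and Sh2d1b2 had at most 1.32 CPM. The phosphatase genes Ptpn6 and Inpp5d were at 156 to 359 CPM and 272 to 694 CPM, Vav1 at 224 to 314 CPM and Csk at 288 to 627 CPM. Fyn, the kinase that SAP recruits, was at 104, 160.4 and 149 CPM in Plcg1-/-Plcg2-/- and at 95.6, 89.95 and 99.8 CPM in Plcg1+/+Plcg2+/+ B cell progenitors (log2 fold change 0.53 (SE 0.25, adjusted p = 0.419)). Becn1, an autophagy protein that binds SLAMF1, was higher in B cell progenitors than in CLPs of Plcg1+/+Plcg2+/+ mice (log2 fold change 0.52 (SE 0.12, adjusted p = 0.0108)), the 1 call of this list. In that comparison 541 of the 602 genes called were higher in B cell progenitors. Of the 6 genes whose products bind or follow the CD2 tail (Cd2ap, Cd2bp2, Pstpip1, Sh3kbp1, Lck and Fyn) 0 were called, with Pstpip1 at a log2 fold change of 0.83 (SE 0.33, adjusted p = 0.324) and Cd2bp2 at -0.25 (SE 0.13, adjusted p = 0.482) in Plcg1-/-Plcg2-/- B cell progenitors.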

How the data were processed

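Poly(A) RNA libraries were made with a kit that does not keep strand and were sequenced on a NextSeq 500. Reads were aligned by the authors with STAR 2.5.0a to mm10 with RefSeq genes, and the deposited values are raw counts of reads per gene for each library. The counting program is not given in the sources used here. Rows for reads on no gene held 17.9 to 45.2% of reads in CLPs and 59.9 to 87.3% in B cell progenitors and were left out.

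The quasi-likelihood test of edgeR 4.0.16 (R version 4.3.3), after filterByExpr and TMM scaling, was run over the 12 libraries of a population for genotypes and over all 24 for the populations, with Benjamini-Hochberg adjustment over all genes tested. Calls required an adjusted p no higher than 0.05 and a log2 fold change of 0.5 or more in either direction. Fold changes come from these fits and levels from TMM scaling over the 24 libraries. Intervals are 95% intervals of the fit. On simulated counts for the comparison of Plcg1-/-Plcg2-/- with Plcg1+/+Plcg2+/+, 85% of 4-fold and 34% of 2-fold changes were called in CLPs (14799 genes), and 87% and 36% in B cell progenitors (14469 genes). The changed genes were drawn only from those with higher mean counts, and the groups otherwise shared a common mean. These shares are averages over such genes. They are not the power for a given member, such as the low Slamf1 or Cd244 in CLPs with its large spread.

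Replicates carry separate identifiers in the sample titles, read here as separate mice, and p-values measure the spread between these mice. No pair of replicates of the same group was a copy (chi-square per degree of freedom at least 8.28). Libraries of different groups were not compared in this way. The CLPs and B cell progenitors of a genotype and replicate number share 1 identifier. Between libraries of 1 mouse the deviations from group means had a mean correlation of 0.114, with a range of -0.35 to 0.53 over 12 pairs. Alternatives were DESeq2 1.42.0, its size factors, no filter on low counts, no fold change threshold, the compared groups alone, the replicate number or the mouse as a block, each library left out and, chosen after seeing the data, leaving out the 4 CLP libraries that stood apart or the 2 shallowest B cell progenitor libraries. The members and gene lists were chosen with earlier results of these data known. All members are named. Of the other lists, each called gene and at most 4 of the most abundant genes were named, with Sh2d1a, Sh2d1b1, Sh2d1b2, Pstpip1 and Cd2bp2 added after their values were seen. Sequences are RefSeq and GRCm38, credited to the reference and not to these libraries.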

Additional observations from a re-analysis of the deposited data

How the results depend on the processing

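Of 19 counts of members called, 15 were the same under every alternative and with each library left out, and no member's called value changed direction. In Plcg1-/-Plcg2-/- against Plcg1+/+Plcg2+/+ CLPs the count of 0 became 1 (Cd2) with DESeq2, and was 0 to 1 with each library left out. Against Plcg1-/-Plcg2+/+ it went from 0 to 1 (Cd2) with DESeq2 in both populations. In Plcg1-/-Plcg2-/- against Plcg1+/+Plcg2+/+ B cell progenitors the count of 1 (Cd2) became 0 with the compared groups alone and 0 without the 2 shallow libraries, and was 0 to 1 with each library left out. The cause of these changes was not tested.

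Replicate numbers were shared by the genotypes but mark no common animal: libraries with the same number in one population had a mean correlation of 0.225 in CLPs (-0.22 to 0.64) and 0.0971 in B cell progenitors (-0.52 to 0.71), and those with different numbers had -0.113 and -0.0492. The correlations are of deviations from the mean of each group. The means for different numbers are therefore fixed by those for the same number and are no separate result. Once the replicate number entered as a block, the count in Plcg1-/-Plcg2-/- against Plcg1+/+Plcg2+/+ B cell progenitors was 2, with Cd2 at a log2 fold change of -2.05 (adjusted p = 0.0116) and Cd244 at 0.92 (adjusted p = 0.00898), and against Plcg1-/-Plcg2+/+ it was 1, with Cd2 at -1.85 (adjusted p = 0.04999). The mouse as a block changed no call of a member between the populations.

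Over all genes the edgeR calls in Plcg1-/-Plcg2-/- against Plcg1+/+Plcg2+/+ CLPs numbered 14, against 169 with DESeq2, 50 with the replicate block, 0 with the groups alone and 27 without the 4 libraries that stood apart. In B cell progenitors they numbered 134, against 423, 550 and 238 with DESeq2, the replicate block and the groups alone. Against Plcg1-/-Plcg2+/+ they were 4 and 32, with DESeq2 89 and 1000. Depth set a floor for low members such as Slamf1, since 3 reads were 0.0903 to 0.709 CPM in CLPs and 0.1197 to 2.03 CPM in B cell progenitors.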
